A study of Mus musculus with 24 samples.

Results

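Matrix metalloproteinases, ADAMTS proteases and the tissue inhibitors that block them were followed in mouse kidney through ureter obstruction and its reversal. The 8 genes were taken by name from the 14785 genes of the deposited expression table: the proteases Mmp2, Mmp7, Mmp14, Adamts1 and Adamts16, and the inhibitors Timp1, Timp2 and Timp3. All 8 had a row. Adamts16 had been picked because it fell late, between 1 and 4 weeks of recovery, so its values are described with no test. The other 7 members were tested.

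Bulk RNA sequencing was done on kidneys of 24 male mice of the strain labelled C57/BL6, with an age label of 8 weeks, in 6 groups of 4 animals. Sham animals had sham surgery. In unilateral ureter obstruction (UUO) the ureter was tied off, and kidneys were taken after 2 days (UUO2) or 7 days (UUO7). In the reversal groups 7 days of obstruction were followed by reimplantation of the ureter and recovery, which lasted 1 week in R1W, 2 weeks in R2W and 4 weeks in R4W. All groups except sham had thus been obstructed, and the labels name no genetic change in any group. More animals had been operated on than were sequenced, and how the 4 per group were chosen is not given in the sources used here. The title of R4W replicate 2 says 4 weeks and its treatment label says 2 weeks, and it was grouped by title.

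Metalloproteinases cut proteins of the extracellular matrix and of the cell surface, and they are made as inactive proenzymes. TIMPs bind the active site and shut it. A special arrangement links 3 of the members: Mmp14, held in the cell membrane, binds Timp2, and the complex captures and activates the gelatinase Mmp2. In fibrosing kidney the balance of these enzymes and inhibitors is one of the systems that set how fast collagen is laid down and removed.

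The promoters of 3 members that rose by 2 days are shown first, since they differ in the motifs they hold. Each sequence is the 250 bases before the RefSeq start (GRCm38.p6), 5′ to 3′ on the strand of the gene, and capitals mark every motif match found. The 3 are Mmp7 (chr9:7691840-7692089, plus strand), Adamts1 (chr16:85803114-85803363, minus strand) and Timp1 (chrX:20869916-20870165, plus strand), whose RefSeq start is also the start in the deposited table.
Mmp7: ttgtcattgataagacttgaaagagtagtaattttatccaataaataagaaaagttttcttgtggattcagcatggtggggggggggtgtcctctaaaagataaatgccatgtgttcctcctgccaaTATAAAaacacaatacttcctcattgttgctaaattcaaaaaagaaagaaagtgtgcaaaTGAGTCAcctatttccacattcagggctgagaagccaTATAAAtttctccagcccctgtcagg
Adamts1: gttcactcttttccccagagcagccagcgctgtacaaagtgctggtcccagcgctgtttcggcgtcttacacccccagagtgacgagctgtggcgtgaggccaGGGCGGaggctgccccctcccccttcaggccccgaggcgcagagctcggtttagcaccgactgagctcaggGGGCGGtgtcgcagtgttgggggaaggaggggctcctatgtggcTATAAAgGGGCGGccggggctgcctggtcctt
Timp1: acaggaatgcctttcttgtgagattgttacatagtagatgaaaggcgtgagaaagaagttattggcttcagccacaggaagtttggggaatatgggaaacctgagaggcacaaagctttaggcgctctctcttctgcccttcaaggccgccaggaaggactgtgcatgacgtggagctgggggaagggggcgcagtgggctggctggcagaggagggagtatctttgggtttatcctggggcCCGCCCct

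Both strands were searched for 4 motifs: the AP-1 consensus TGAGTCA, its variant TGAGTAA, the TATA motif TATAAA and the GC box GGGCGG. The Mmp7 window held TGAGTCA at 63 to 57 bases before the start and TATAAA at 123 to 118 and at 26 to 21. The Adamts1 window held TATAAA at 32 to 27 and GGGCGG at 147 to 142, 76 to 71 and 25 to 20. In the Timp1 window the only match was GGGCGG on the opposite strand, at 8 to 3 bases before the start. The windows of Mmp14, Timp2 and Timp3, which are not shown, also held only GGGCGG. Their RefSeq starts lie 14, 329 and 40 bases from the deposited ones. No window was available for Mmp2 and Adamts16. Of 32841 windows of the same length in the RefSeq table, 4.46% held TGAGTCA, 2.25% TGAGTAA, 12.4% TATAAA and 32.7% GGGCGG. These matches are letters in a window, and binding was not measured.

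Values are FPKM, fragment counts scaled to transcript length and library size, so levels can be compared between genes. Differences between groups are on the scale log2(FPKM + 1), with the standard error (SE) from limma, and calls were made at a false discovery rate of 0.05 (Benjamini-Hochberg adjusted p over all 14785 genes). FPKM is relative to the whole library, and the median of all genes moved by 0.42 (log2) between sham and UUO7, by 0.28 between UUO2 and UUO7 and by 0.30 between sham and R4W. Each difference was therefore also computed after rescaling every library by its median ratio to the gene-wise mean, which brings these medians to between -0.02 and 0.01. Whole-read steps in low values gave a depth of 24960000 to 35420000 fragments in 20 libraries and were found in 0 of the 4 UUO2 libraries. The submitters' design text speaks of 20 libraries sequenced together, so in every comparison with UUO2 the obstruction time and the library batch cannot be told apart. Adipoq, an adipocyte gene, was above 1 FPKM in 3 libraries (sham replicate 2, R4W replicates 1 and 3), and results were repeated without them. The kidney identity of the tissue was checked with 5 proximal tubule markers, all present, whose summed level was 3214 to 3764 FPKM in sham and 738 to 904 FPKM in UUO7.

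**Figure D1:**
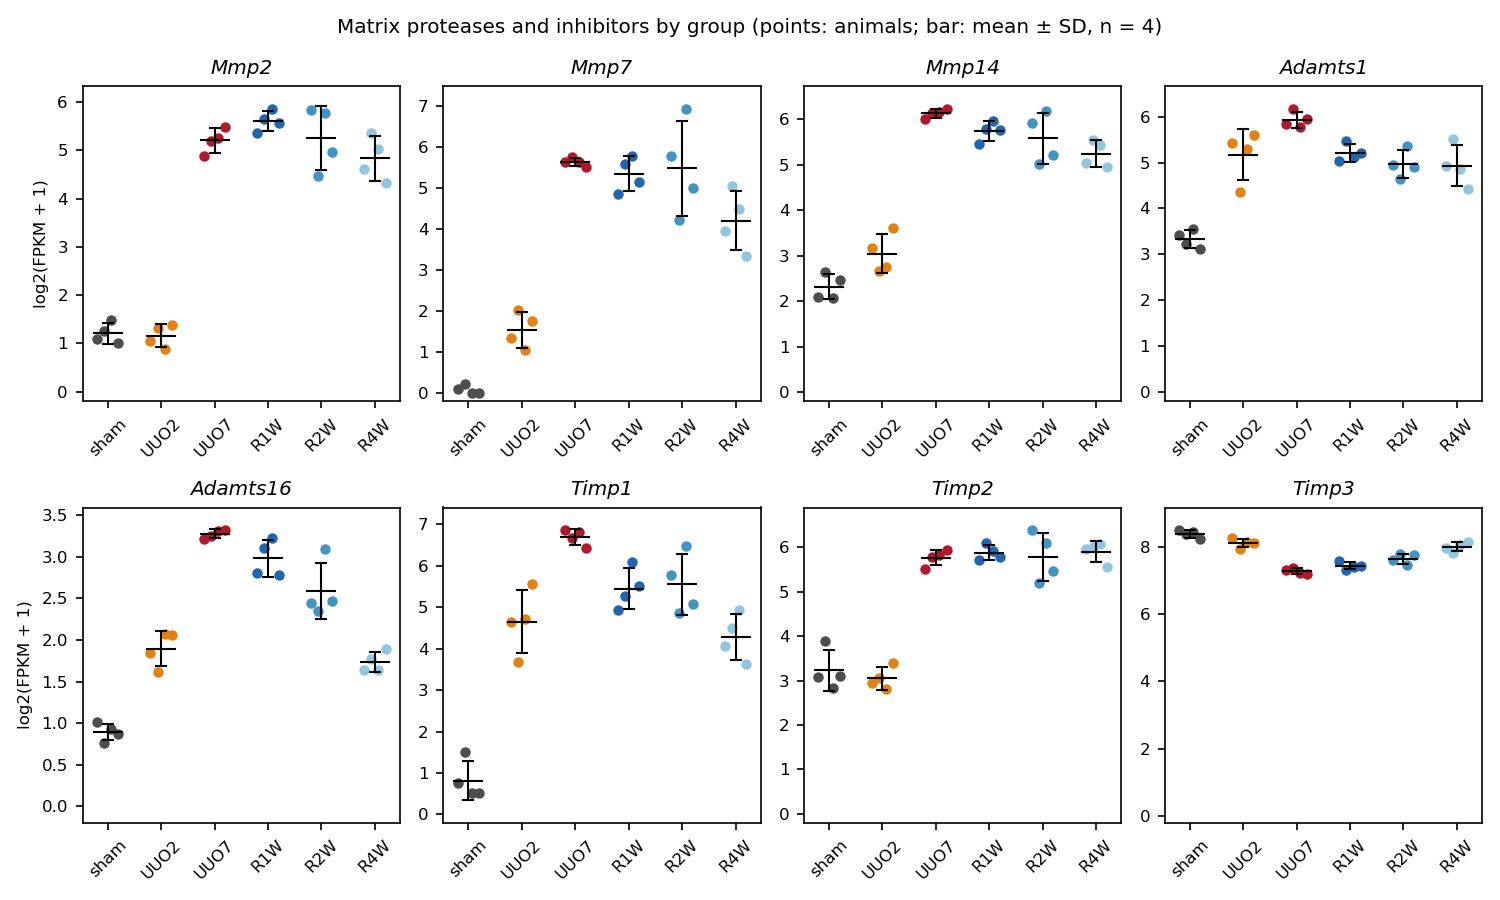
Level of each of the 8 members as log2(FPKM + 1) on the vertical axis, by group on the horizontal axis. Points are animals and bars are the mean ± SD over 4 animals, with no bar for Mmp7 in sham, where 2 libraries are listed at 0. Timp3 is lowest in UUO7 while the other 7 members are lowest in sham or UUO2.

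After 2 days of obstruction 4 of the 7 tested members had risen (Timp1, Adamts1, Mmp7 and Mmp14) and 1 had fallen (Timp3), while Mmp2 and Timp2 did not pass the test. By 7 days all 7 differed from sham: 6 were higher and Timp3 was lower. After 4 weeks of recovery Timp1, Mmp7, Mmp14 and Adamts1 were below their level at 7 days and Timp3 was above it, whereas Mmp2 and Timp2 did not pass the test against 7 days. All 7 still differed from sham at 4 weeks, in the same directions as at 7 days, with the sham animals shared by both comparisons.

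These counts stand against a wide response of the transcriptome. In UUO2 against sham 49.2% of all genes were called, 32.3% higher and 17.0% lower, which became 25.3% and 25.5% after rescaling. The animals of the 2 groups did not overlap for 4 of the 7 members, beside 42.8% of all genes. In UUO7 against sham 77.9% were called, 60.1% higher and 17.8% lower, or 36.5% in each direction after rescaling, and the animals did not overlap for 73.7% of all genes and for all 7 members. A call at 7 days is thus what most genes show. The median difference over the 7 members was 3.81 (log2) beside 0.42 over all genes. The members were chosen with earlier results of these data known, so this gap describes them and is no test.

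Mmp2, the gelatinase that cuts denatured collagen and basement membrane collagen, was a late riser. Its level was 1.12, 1.40, 1.81 and 1.00 FPKM in the 4 sham kidneys and 1.07, 1.50, 0.84 and 1.60 FPKM in UUO2. In UUO7 it stood at 28.4, 35.5, 37.3 and 43.8 FPKM. The sham and UUO2 animals overlapped, and every UUO7 animal lay above all of them. The difference was -0.05 ± 0.25 (log2, SE; adjusted p = 0.883) at 2 days and 3.99 ± 0.25 (adjusted p = 4.27e-11) at 7 days, or 3.63 after rescaling. Between 2 and 7 days Mmp2 rose by 4.04 ± 0.25 (log2; adjusted p = 1.07e-10).

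Mmp2 remained above all sham animals after reversal of the obstruction. One week after reversal its level was 40.2, 48.9, 57.2 and 46.3 FPKM, and its mean in R1W, 48.1 ± 7.04 FPKM (SD, n = 4), was the highest of the 6 groups. At 4 weeks the animals had 23.3, 40.2, 31.5 and 19.1 FPKM. Both recovery groups overlapped with UUO7, and neither differed from it beyond the test (log2 difference 0.41 ± 0.25 at 1 week, adjusted p = 0.285, and -0.37 ± 0.25 at 4 weeks, adjusted p = 0.226). R4W was below R1W by -0.78 ± 0.25 (log2, adjusted p = 0.0358), with overlap and a call that was lost in several fits without 1 animal. Against sham Mmp2 at 4 weeks was higher by 3.62 ± 0.25 (log2; adjusted p = 8.24e-10).

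Mmp14, the membrane-anchored collagenase that activates Mmp2, was called higher by 2 days, when Mmp2 was not. The difference between these genes was not tested. Sham kidneys had 3.29, 5.28, 3.22 and 4.48 FPKM and UUO2 kidneys 7.96, 5.37, 5.68 and 11.2 FPKM. At 7 days the values were 62.9, 69.2, 70.7 and 74.1 FPKM. Each group lay wholly above the one before it, though the nearest sham and UUO2 animals were close, at 5.28 and 5.37 FPKM. The rise by 2 days was 0.72 ± 0.23 (log2; adjusted p = 0.0126) and the call was lost without UUO2 replicate 4 (0.54, adjusted p = 0.0651) and with a pseudocount of 10 (0.31, adjusted p = 0.141; 0.00599 to 0.141 over the alternatives). From 2 to 7 days Mmp14 rose by 3.09 ± 0.23 (log2; adjusted p = 1.05e-09), and against sham the difference at 7 days was 3.81 ± 0.23 (adjusted p = 3.04e-11).

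In recovery Mmp14 was lower than in UUO7, by a difference that passed the test at 4 weeks and not at 1 week. Its level was 42.6, 53.8, 61.2 and 53.3 FPKM in R1W and 31.9, 45.9, 42.2 and 29.9 FPKM in R4W. Every animal of both groups lay below the lowest UUO7 animal. The difference from UUO7 was -0.39 ± 0.23 at 1 week (log2; adjusted p = 0.256), which was called only in the fit on the 2 groups compared (adjusted p = 0.0437; 0.0437 to 0.470 over the alternatives), and -0.89 ± 0.23 at 4 weeks (adjusted p = 0.00351). At 4 weeks Mmp14 remained above sham by 2.92 ± 0.23 (log2; adjusted p = 3.33e-09).

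Timp2, an inhibitor of several metalloproteinases that is also the link between Mmp14 and Mmp2, was like Mmp2 not called at 2 days and higher at 7 days. Its rise from 2 to 7 days was 2.72 ± 0.23 (log2), beside 4.04 ± 0.25 for Mmp2. Sham animals had 7.41, 13.9, 6.14 and 7.66 FPKM and UUO2 animals 6.69, 7.34, 6.00 and 9.55 FPKM, and these groups overlapped. At 7 days the level was 44.9, 54.1, 56.1 and 60.0 FPKM, with every animal above all sham and UUO2 animals. Timp2 differed from sham by -0.18 ± 0.23 (log2; adjusted p = 0.543) at 2 days and rose by 2.54 ± 0.23 (adjusted p = 3.21e-09) by 7 days, or 2.09 after rescaling.

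Timp2 did not pass the test against UUO7 at 1 or 4 weeks of recovery. Its R2W animals, which were not tested, ran from 35.5 to 82.6 FPKM and lay on both sides of UUO7. In R1W the animals had 51.5, 67.9, 59.7 and 54.0 FPKM, and in R4W 61.3, 62.9, 66.8 and 46.3 FPKM. The means over 4 animals were 53.8 ± 6.41 FPKM in UUO7, 58.3 ± 7.29 FPKM in R1W and 59.3 ± 8.99 FPKM in R4W (SD), and the 3 groups overlapped. The difference between R4W and UUO7 was 0.13 ± 0.23 (log2; adjusted p = 0.649), and that between R4W and R1W was 0.02 ± 0.23 (adjusted p = 0.963). Over the alternatives R4W against UUO7 ranged from 0.01 to 0.25 (log2). Against sham Timp2 at 4 weeks was higher by 2.67 ± 0.23 (log2; adjusted p = 7.27e-09).

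Mmp7, or matrilysin, is a small secreted protease that epithelial cells make and that cuts matrix proteins and cell surface proteins such as E-cadherin. It was close to absent in sham kidney: the table lists 0.07 and 0.17 FPKM in replicates 1 and 2 and 0 in replicates 3 and 4. In UUO2 it was 1.52, 3.10, 1.06 and 2.41 FPKM and in UUO7 48.6, 53.3, 49.2 and 44.8 FPKM. The 3 groups did not overlap. The rise was 1.46 ± 0.41 at 2 days (log2; adjusted p = 0.00510) and 5.56 ± 0.41 at 7 days (adjusted p = 2.69e-10). With a base so near 0 the size depends on the pseudocount: the difference at 7 days was 8.39 with 0.1 and 2.55 with 10, and at 2 days 3.75 and 0.25, the last with no call (adjusted p = 0.547; 1.85e-06 to 0.547 over the alternatives).

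Mmp7 passed the test against 7 days at 4 weeks of recovery and not at 1 week, and its animals spread widely. The R2W animals, which were not tested, ran from 17.7 to 122 FPKM and lay on both sides of the 44.8 to 53.3 FPKM of UUO7. Its level was 28.1, 47.6, 54.6 and 34.4 FPKM in R1W, overlapping with UUO7. In R4W it was 14.5, 32.3, 21.4 and 9.24 FPKM, all below UUO7 and all above UUO2. The difference from UUO7 was -0.29 ± 0.41 at 1 week (log2; adjusted p = 0.673) and -1.43 ± 0.41 at 4 weeks (adjusted p = 0.00669). R4W against R1W gave -1.14 ± 0.41 (log2; adjusted p = 0.0531), which passed the threshold when R4W replicate 2 was placed in R2W as its treatment label says (-1.42, adjusted p = 0.0258; 0.0258 to 0.181 over the alternatives). At 4 weeks Mmp7 was still above sham by 4.13 ± 0.41 (log2; adjusted p = 4.34e-08).

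Adamts1 is a secreted protease that cuts proteoglycans such as versican. Its level in sham was 9.68, 8.37, 10.7 and 7.65 FPKM. It reached 42.3, 19.6, 38.2 and 47.3 FPKM in UUO2 and 55.9, 71.2, 53.8 and 60.6 FPKM in UUO7. All UUO2 animals lay above sham and all UUO7 animals above UUO2, with UUO2 replicate 2 the lowest of its group. Adamts1 rose by 1.85 ± 0.23 by 2 days (log2; adjusted p = 1.44e-06) and by 2.60 ± 0.23 by 7 days (adjusted p = 2.37e-09), or 2.15 after rescaling. The further step from 2 to 7 days was 0.76 ± 0.23 (log2; adjusted p = 0.00599) as deposited and 0.41 (adjusted p = 0.102) after rescaling, where it was not called (0.00250 to 0.102 over the alternatives).

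Adamts1 was below its day 7 level at both tested times of recovery. The R1W animals had 31.8, 43.5, 34.0 and 35.7 FPKM and the R4W animals 29.3, 44.8, 28.2 and 20.6 FPKM. All 8 were below the lowest UUO7 animal, and the recovery groups overlapped with each other. Against UUO7 Adamts1 had dropped by 0.72 ± 0.23 (log2; adjusted p = 0.0371) at 1 week and had dropped by 1.00 ± 0.23 (adjusted p = 0.00132) at 4 weeks, and R4W differed from R1W by -0.27 ± 0.23 (adjusted p = 0.403). The call at 1 week was lost in 7 of the 8 fits that left out 1 animal of either group (adjusted p = 0.0565 to 0.0937), all but the one without R1W replicate 2, and the call at 4 weeks was kept in each. At 4 weeks it was above sham by 1.61 ± 0.23 (log2; adjusted p = 4.48e-06).

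Adamts16 belongs to the same secreted family, can cut fibronectin, and is expressed in kidney. It was the lowest of the 8 at 7 days. Sham animals had 1.01, 0.70, 0.90 and 0.83 FPKM, UUO2 animals 2.59, 2.07, 3.19 and 3.17 FPKM and UUO7 animals 8.30, 8.49, 8.96 and 9.05 FPKM. These 3 groups did not overlap, and the UUO7 animals lay within a range narrower than that of any recovery group except R4W. The levels were 6.01, 7.64, 8.39 and 5.89 FPKM in R1W and 2.11, 2.42, 2.11 and 2.72 FPKM in R4W. All R4W animals were below all R1W and UUO7 animals and above all sham animals. On the log2 scale the mean difference was -0.29 between R1W and UUO7 and -1.25 between R4W and R1W, the late fall for which the gene was chosen, and 0.84 between R4W and sham. R4W overlapped with UUO2.

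Timp1, a secreted inhibitor and a common marker of fibrosing tissue, had the largest rise of the tested members at 2 days and at 7 days with the pseudocount of 1. Its level in sham was 0.69, 1.82, 0.42 and 0.42 FPKM. At 2 days it was 23.9, 11.9, 25.4 and 46.4 FPKM and at 7 days 115, 101, 112 and 85.8 FPKM. The 3 groups did not overlap. Timp1 rose by 3.84 ± 0.37 by 2 days (log2; adjusted p = 7.78e-08), by 5.88 ± 0.37 by 7 days (adjusted p = 5.46e-11) and by 2.04 ± 0.37 between them (adjusted p = 7.07e-05). With pseudocounts of 0.1 and 10 the difference at 7 days was 7.01 and 3.38, and that of Mmp7 was then the larger with 0.1. The authors' deposited table gives Mmp7 the larger rise at both times. It lists 4.99 for Mmp7 and 4.86 for Timp1 at 2 days, and 9.22 and 6.45 at 7 days (log2).

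Timp1 was lower at each tested step of recovery, although its calls at 1 week and from 1 to 4 weeks were lost in several fits without 1 animal. One week after reversal it was 29.7, 37.5, 67.0 and 44.6 FPKM, and at 4 weeks 15.7, 21.6, 29.3 and 11.3 FPKM. The R1W animals were all below UUO7 and the R4W animals all below R1W. The difference from UUO7 was -1.25 ± 0.37 at 1 week (log2; adjusted p = 0.0298) and -2.42 ± 0.37 at 4 weeks (adjusted p = 4.40e-05). From 1 to 4 weeks it was -1.18 ± 0.37 (log2; adjusted p = 0.0343). Leaving out 1 animal ended the call at 1 week in 6 of 8 fits, all but those without UUO7 replicate 4 or R1W replicate 3, and that from 1 to 4 weeks in 4 of 8, those without R1W replicate 3 or 4 or R4W replicate 1 or 4. The adjusted p over the alternatives reached 0.0925 and 0.147, and that of R4W against UUO7 stayed at or below 4.68e-04. The R4W animals still stood 3.46 ± 0.37 above sham (log2; adjusted p = 1.50e-07).

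Timp3 binds to the matrix and inhibits ADAM and ADAMTS proteases as well as metalloproteinases. It was the most abundant member in every group and the one that moved the other way. Sham kidneys had 359, 331, 344 and 300 FPKM, UUO2 kidneys 304, 245, 280 and 278 FPKM and UUO7 kidneys 159, 166, 148 and 146 FPKM. Sham and UUO2 overlapped, through sham replicate 4 and UUO2 replicate 1, and all UUO7 animals lay below both. The fall was -0.27 ± 0.09 at 2 days (log2; adjusted p = 0.0141) and -1.10 ± 0.09 at 7 days (adjusted p = 7.13e-10), or -1.59 after rescaling. At 2 days the call was lost without sham replicate 1 (-0.23, adjusted p = 0.0510) and without UUO2 replicate 2 (-0.21, adjusted p = 0.0519; 0.00503 to 0.0519 over the alternatives).

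Timp3 rose again in recovery. Its level was 190, 159, 169 and 173 FPKM in R1W, overlapping with UUO7. In R4W it was 249, 227, 265 and 282 FPKM, above all UUO7 and R1W animals and below all sham animals. The difference from UUO7 was 0.16 ± 0.09 at 1 week (log2; adjusted p = 0.235) and 0.72 ± 0.09 at 4 weeks (adjusted p = 5.33e-06), and R4W was above R1W by 0.56 ± 0.09 (adjusted p = 0.00132). Against sham the deficit at 4 weeks was -0.38 ± 0.09 (log2; adjusted p = 7.24e-04) as deposited and -0.76 after rescaling. Timp3 lies within Syn3 on the opposite strand, and the strand setting of the libraries is not stated. Syn3 had 1.56 to 7.24 FPKM over the 24 libraries, so its level was a small part of that of Timp3.

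**Figure D2:**
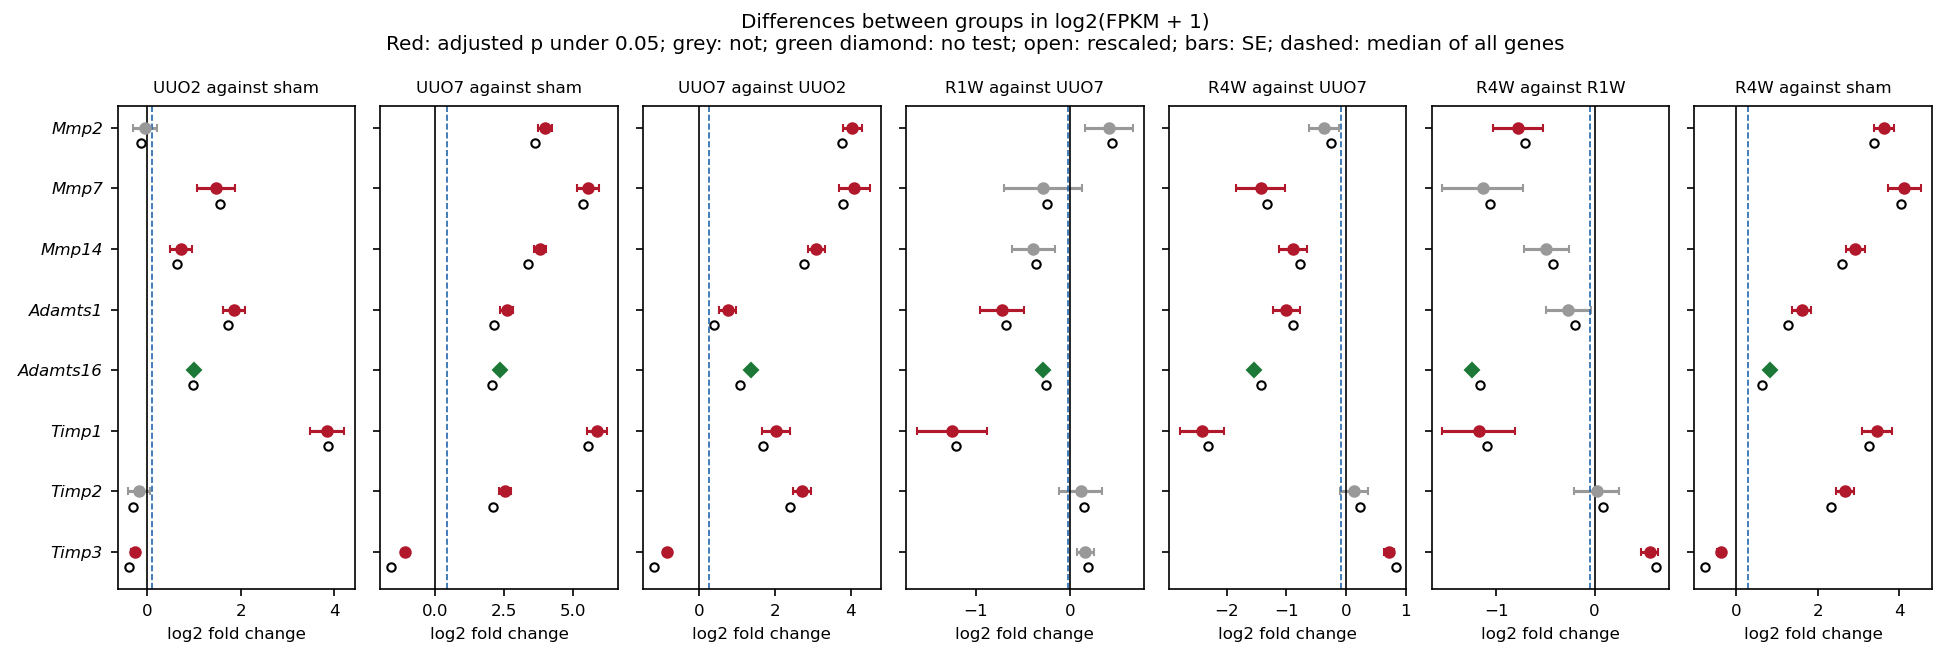
Log2 fold change of the 8 members in the 7 comparisons, with SE bars for the tested members. Red points passed the test, grey points did not, the green diamond is Adamts16 (no test), open points are the rescaled values and the dashed line is the median of all genes. Timp3 lies opposite to the other called members in every comparison with a call for it, and the horizontal axes differ between panels.

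In R1W against UUO7 14.5% of all genes were called (6.47% higher and 8.04% lower), and among the 7 members 2 were lower, Adamts1 and Timp1. Mmp14 also had no overlap between the groups, which 20.3% of all genes showed. Both calls were close to the threshold: after leaving out any 1 of the 8 libraries 0 or 1 of the 7 was called, and over the alternatives the adjusted p ran from 0.00645 to 0.0937 for Adamts1 and from 0.00862 to 0.0925 for Timp1. The direction of both stayed negative in each of these fits.

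R4W against UUO7 called 48.4% of all genes, 17.6% higher and 30.8% lower, or 25.1% and 23.2% after rescaling. Of the 7 members 4 were lower and 1 higher, and 5 of 7 were called in every fit without 1 library. The same 5 had no overlap, beside 49.2% of all genes. In R4W against R1W 19.1% were called, 5.06% higher and 14.1% lower, or 8.67% and 8.60% after rescaling, and among the members Timp1 and Mmp2 were lower and Timp3 higher. Mmp2 (-0.78 ± 0.25, log2; adjusted p = 0.0358) had overlapping animals, and Timp1 and Timp3 did not, as for 21.5% of all genes. The calls of Mmp2 and Timp1 were lost together without R1W replicate 3, R1W replicate 4, R4W replicate 1 or R4W replicate 4, and also without the 3 libraries with Adipoq, which left 1 of the 7 called. Mmp2 alone lost its call without R1W replicate 2 (adjusted p = 0.0569; 0.0174 to 0.153 over its alternatives). Timp3 kept its call in all of these fits.

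Against sham R4W called 66.4% of all genes, 54.8% higher and 11.6% lower, or 28.9% and 31.1% after rescaling, with no overlap for 64.5%. UUO7 against UUO2 called 66.7%, 52.0% higher and 14.7% lower, or 30.0% and 31.9%, with no overlap for 60.5%. The members' 7 of 7 in both comparisons is read against these shares. After rescaling 7 of 7 were called in R4W against sham and 6 of 7 in UUO7 against UUO2, where Adamts1 lost its call. Their median was 2.92 (log2) in R4W against sham, beside 0.30 over all genes, and 2.72 in UUO7 against UUO2, beside 0.28. These medians, too, only describe members chosen with earlier results known.

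The authors' deposited table also gives fold changes and adjusted p-values, and its calls at 0.05 differed from these for 4 of the 7 tested members in 3 comparisons. The authors' deposited table lists Adamts1 in UUO7 against UUO2 at 0.35 (log2) with an adjusted p of 0.198. In the authors' deposited table Mmp14 and Mmp2 pass 0.05 in R1W against UUO7, at -0.38 (adjusted p 0.00578) and 0.39 (adjusted p 0.0190). In R4W against R1W the authors' deposited table lists Mmp7 at -1.03 (adjusted p 0.0131) and Mmp14 at -0.45 (adjusted p 0.0310). The log base and the direction of those values were inferred.

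The 3 inhibitors moved in opposite directions, and their proportions changed. Summed over Timp1, Timp2 and Timp3 the level was 343 ± 25.0 FPKM in sham, 312 ± 13.7 FPKM in UUO7, 276 ± 14.1 FPKM in R1W and 335 ± 21.1 FPKM in R4W (SD, n = 4). After rescaling the sum was 422 ± 38.3 in sham, 274 ± 18.4 in UUO7 and 317 ± 22.8 in R4W, with all animals of UUO7 and R4W below sham. As deposited sham and R4W overlapped, as did sham and UUO7. The shares within a library do not depend on the rescaling. Timp3 made up 97.2% ± 1.19 of the sum in sham and 89.2% ± 4.13 in UUO2. At 7 days its share was 49.6% ± 2.02, and Timp1 had 33.1% ± 3.15 and Timp2 17.3% ± 2.67. The range of the Timp3 share was 95.5% to 98.1% in sham and 46.8% to 51.6% in UUO7, with no overlap.

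The inhibitor pool in recovery was not that of sham kidney. In R4W Timp3 had 76.4% ± 4.68 of the summed FPKM, Timp2 17.8% ± 2.87 and Timp1 5.80% ± 2.14. The Timp1 share was thus lower than the 16.1% ± 4.92 of R1W, with no overlap (3.34% to 8.11% in R4W, 11.0% to 22.6% in R1W), while the Timp2 share in R1W was 21.2% ± 3.05 and overlapped with R4W. In sham Timp2 had 2.57% ± 1.01. These shares are of messenger RNA, and no protein or activity was measured.

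**Figure D3:**
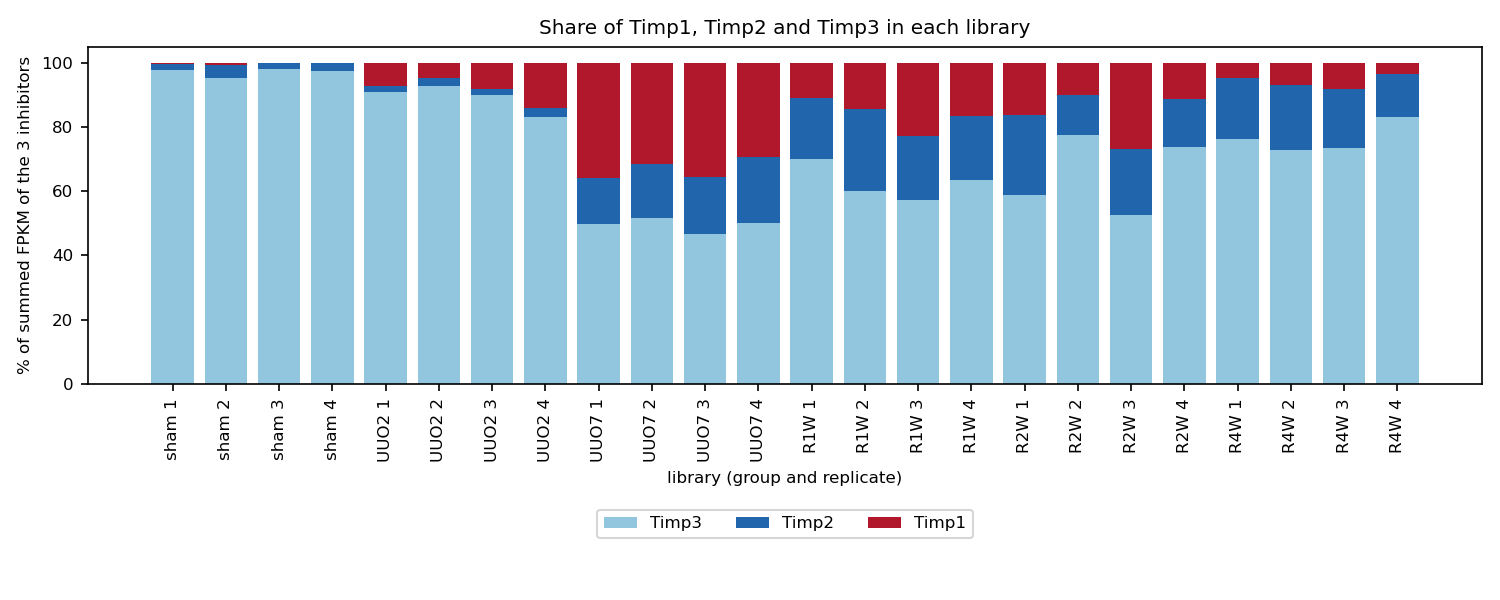
Share of Timp1, Timp2 and Timp3 in their summed FPKM (vertical axis, percent) in each of the 24 libraries (horizontal axis). Timp3 falls from at least 95.5% in sham to at most 51.6% in UUO7, and in R4W the shares of Timp2 exceed those of Timp1.

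Within a library the ratio of protease to inhibitor also shifted. The log2 ratio of Mmp14 to Timp2, each with 1 FPKM added, was -0.91 ± 0.26 in sham, -0.01 ± 0.29 in UUO2 and 0.36 ± 0.08 in UUO7 (SD, n = 4). It was then -0.14 ± 0.18 in R1W and -0.66 ± 0.20 in R4W. In UUO7 every animal had more Mmp14 than Timp2 per length (0.30 to 0.48), and in sham and R4W every animal had less, with overlapping ranges of -1.25 to -0.66 and -0.92 to -0.45. The order of those groups depends on the pseudocount, since with 10 FPKM added sham was at -0.40 and R4W at -0.55.

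For Mmp2 to Timp2 the log2 ratio was -2.02 ± 0.53 in sham, -1.89 ± 0.12 in UUO2, -0.57 ± 0.09 in UUO7, -0.27 ± 0.17 in R1W and -1.07 ± 0.32 in R4W. Timp2 was thus above Mmp2 in every animal of these 5 groups. The R4W ratio was the lower of the recovery values at 1 and 4 weeks, with no overlap (-1.36 to -0.63 in R4W, -0.47 to -0.06 in R1W). Its order against sham depends on the pseudocount: R4W minus sham was 0.95 with 1 and -0.16 with 10. The log2 ratio of Timp1 to Timp3 was -7.57 ± 0.47 in sham, -0.58 ± 0.18 in UUO7 and -3.72 ± 0.62 in R4W, and the UUO2 value was -3.46 ± 0.70. The sham value rests on a low Timp1 and was -8.70 with a pseudocount of 0.1 and -4.98 with 10, where R4W was -3.79 and -3.21. Ratios were not tested.

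**Figure D4:**
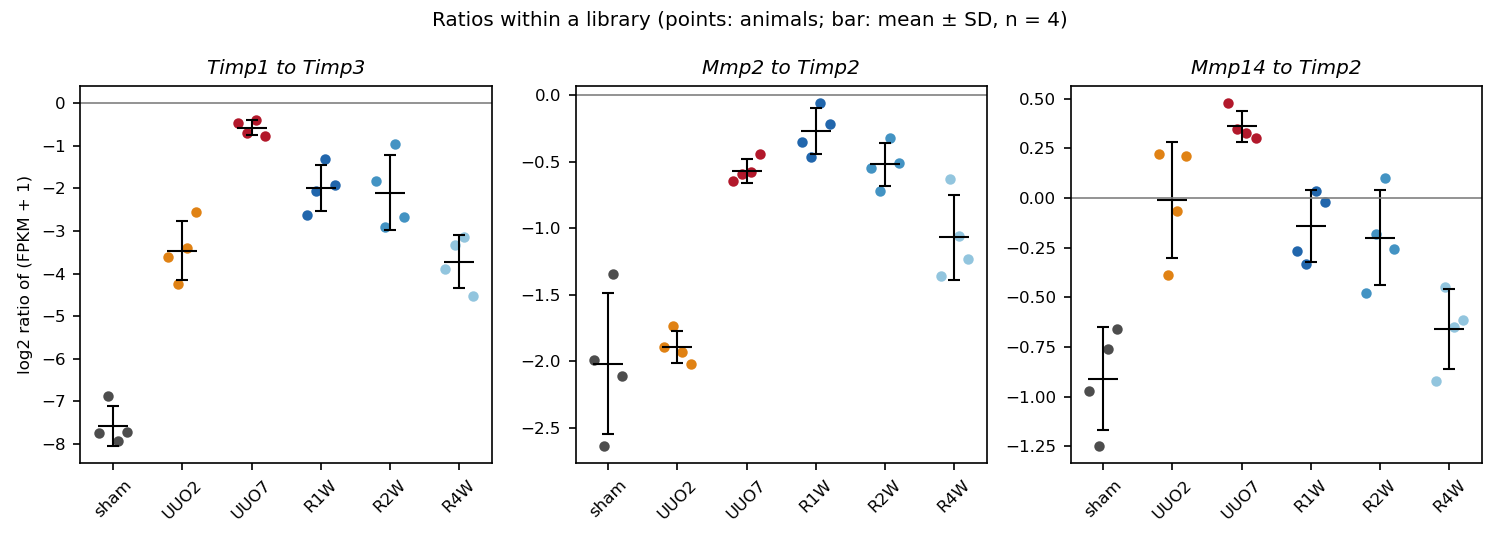
Log2 ratio of (FPKM + 1) within each library for Timp1 to Timp3, Mmp2 to Timp2 and Mmp14 to Timp2 (vertical axes, which differ) by group (horizontal axis). Points are animals and bars the mean ± SD of 4, and Mmp14 to Timp2 is above 0 in all 4 UUO7 animals.

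Animals of the 2-week recovery group were uneven. Mmp2 was 56.2, 21.2, 53.5 and 30.1 FPKM in R2W replicates 1 to 4, and Mmp14 was 59.0, 31.2, 71.9 and 36.0 FPKM. Mmp7 was 54.1, 17.7, 122 and 31.1 FPKM. Replicates 1 and 3 were high and replicates 2 and 4 low for all 3 proteases. The inhibitor Timp2 had 82.6, 35.5, 67.1 and 43.2 FPKM and Timp1 53.8, 28.1, 88.6 and 32.6 FPKM, in the same arrangement. Timp3 had 195, 219, 174 and 215 FPKM, with replicates 1 and 3 the low ones. Adamts1 (29.9, 23.9, 40.3 and 28.7 FPKM) kept that order over a narrower range, and Adamts16 had 4.47, 4.08, 7.52 and 4.55 FPKM.

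Cell type markers moved with these values. In R2W the summed macrophage markers (4 of 4 with a row) were 1233, 473, 978 and 630 FPKM in replicates 1 to 4, the fibroblast and pericyte markers (4 of 4) 97.4, 76.9, 103 and 90.5 FPKM, and the injured tubule markers (4 of 4) 582, 256, 776 and 336 FPKM. The proximal tubule markers (5 of 5) were 1197, 2210, 1114 and 1828 FPKM. Replicates 1 and 3, with the higher metalloproteinases, thus had the higher macrophage and injured tubule sums and the lower proximal tubule sums. Their part in the result was not tested.

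Across the groups, too, marker sums moved with the members. The fibroblast and pericyte sum was 11.2 to 31.1 FPKM in sham, 15.5 to 25.1 in UUO2, 102 to 122 in UUO7, 106 to 156 in R1W and 78.8 to 137 in R4W. In this sum as in Mmp2 and Timp2, sham and UUO2 overlapped and the later groups lay above. Dcn made up most of it (60.6 FPKM in UUO7 and 72.6 in R4W), and Pdgfrb of the same list was lower in recovery, at 34.0 to 35.2 FPKM in UUO7 and 14.4 to 17.4 in R4W. The same order held for the sums of the endothelium list (4 of 4 with a row; 41.1 to 75.8 FPKM in sham, 21.4 to 49.4 in UUO2 and 94.9 or more in later groups), the lymphocyte list (3 of 4; 0.630 to 1.99 in sham, 0.740 to 2.09 in UUO2 and 6.11 or more later) and the macrophage list, though not for each gene in them. Kdr, an endothelial receptor, was 5.38 to 6.59 FPKM in sham, 0.950 to 2.27 in UUO2 and 6.46 to 7.97 in UUO7, so UUO2 lay below sham and UUO7 overlapped it. Of the macrophage genes at 2 days Csf1r was lower (16.7 to 19.8 FPKM in sham and 6.34 to 9.81 in UUO2) and Cd68 higher (1.39 to 2.20 and 8.39 to 13.1), with no overlap for either. The macrophage sum was 31.7 to 44.8 FPKM in sham, 40.6 to 88.2 in UUO2, 388 to 518 in UUO7 and 456 to 874 in R4W. The injured tubule sum was 5.27 to 21.0 FPKM in sham, 671 to 1123 in UUO2, 1369 to 1722 in UUO7, 471 to 718 in R1W and 200 to 303 in R4W, and Timp1, Adamts1, Mmp7 and Mmp14 were likewise called higher at 2 days. The smooth muscle sum was 31.1 to 72.5 FPKM in sham, 49.4 to 199 in UUO2, 243 to 340 in UUO7, 154 to 221 in R1W and 136 to 208 in R4W. Tagln and Acta2 made up most of the smooth muscle sum, while Myh11 was 3.26 to 6.47 FPKM in sham and 2.88 to 3.78 in UUO7. The proximal tubule sum rose from 738 to 904 FPKM in UUO7 to 1590 to 2258 FPKM in R4W, as Timp3 rose. The loop and distal tubule sum was likewise higher in R4W (1982 to 2826 FPKM) than in UUO7 (1211 to 1585), as was the collecting duct sum (370 to 835 and 113 to 166). The podocyte sum was 41.5 to 46.9 FPKM in sham, 19.0 to 39.5 in UUO2, 77.0 to 90.5 in UUO7 and 110 to 158 in R4W, and the urothelium sum 1.45 to 34.2, 0.470 to 3.41, 16.8 to 31.6 and 42.6 to 141. In bulk tissue a change in the number of cells of a type and a change in RNA per cell cannot be told apart, and the part of these cells in the members' changes was not tested.

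The adipose list (4 of 4 with a row) ranged from 39.8 to 281 FPKM in sham and from 62.0 to 1558 FPKM in R4W. Without the 3 libraries in which Adipoq was above 1 FPKM, all 7 members were still called at 7 days and at 4 weeks of recovery when set against sham. Timp2 in sham replicate 2, one of these libraries, was 13.9 FPKM beside 6.14 to 7.66 FPKM in the other sham animals, and without the 3 libraries its difference between UUO2 and sham was 0.04 (log2; adjusted p = 0.886; 0.214 to 0.886 over the alternatives).

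The likeness of the members' courses is described here by Pearson's r of log2(FPKM + 1) over the 24 libraries. Mmp2, Mmp7, Mmp14 and Timp2 had r of 0.93 to 0.98 with one another, and Adamts1 and Timp1 had 0.93. Adamts16 had r = -0.94 with Timp3 and 0.91 with Timp1, and Adamts1 had 0.54 with Timp2. The libraries come in 6 groups, so these values mainly describe the group means, and all genes of a library share its scaling.

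By the same measure, the gene most like each member was looked for over the whole table, leaving out genes whose mean was below 5 FPKM. For Mmp2 it was Dkk3 (r = 0.996), which had 2.56 FPKM in sham, 2.40 in UUO2, 22.0 in UUO7 and 18.0 in R4W, followed by Islr (0.993). For Timp2 it was Icosl (0.995), with Rarg (0.994) and Serping1 (0.992) next. Mmp14 was most like Gsdmd (0.995), then Nlgn2 (0.994) and Arhgef25 (0.993), and Mmp7 was most like Olfml3 (0.985), then Fcgr3 (0.983) and Fcgr1 (0.982).

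Timp1 was most like Aldh1a2 (0.990), which went from 0.745 FPKM in sham to 12.4 in UUO2 and 51.1 in UUO7 and back to 13.2 in R4W, then Cxcl16 (0.990) and Tubb5 (0.985). Adamts1 was most like Clcf1 (0.976), Nup62 (0.972) and Uhrf1 (0.971). Adamts16 was most like Snhg18 (0.975), then Arpc3 and Ppid (0.962 each), and Timp3 was most like Tex2 (0.958), Glyat (0.950) and Suclg2 (0.949). After rescaling the r with Adamts16 was 0.922 for Snhg18, 0.909 for Arpc3 and 0.913 for Ppid, and Nup62 had 0.914 with Adamts1. Those with Timp3 became higher, at 0.979 for Tex2, 0.974 for Glyat and 0.975 for Suclg2. The ranking was not repeated after rescaling. Glyat and Suclg2 are mitochondrial enzymes. Glyat stood at 237 FPKM in sham and 76.5 FPKM in UUO7, and R4W reached 143 FPKM.

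Other genes of the same system were taken from 4 lists of proteases, inhibitors and activators with 54 names. Of these, 29 had a row. No gene of the table averaged below 1 FPKM over the libraries, so a gene could enter through the group in which it was high, and the counts describe those genes and support nothing about the families. In UUO7 against sham 23 of the 29 were higher, 4 lower and 2 not called, or 22, 6 and 1 after rescaling, with a median of 1.44 (log2). Over all genes 60.1% were higher and 17.8% lower, or 36.5% each way after rescaling, with a median of 0.42, and the counts by list that follow are read against these shares. In UUO2 against sham 8 were higher and 3 lower, beside 32.3% and 17.0% of all genes, and in R4W against sham 22 were higher and 2 lower, or 21 and 5 after rescaling, beside 54.8% and 11.6% of all genes as deposited.

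Among the other matrix metalloproteinases (7 of 20 with a row) 7 were higher in UUO7 than in sham. Mmp12, the macrophage elastase, was higher in recovery than at 7 days: it had 7.33 ± 2.09 FPKM in UUO7, 15.6 ± 4.75 FPKM in R1W and 19.2 ± 7.54 FPKM in R4W (SD, n = 4). The difference of Mmp12 from UUO7 was 0.99 ± 0.32 at 1 week (log2; adjusted p = 0.0431) and 1.24 ± 0.32 at 4 weeks (adjusted p = 0.00360), and R4W differed from R1W by 0.25 ± 0.32 (adjusted p = 0.613), with overlap. The call of Mmp12 at 1 week was lost without UUO7 replicate 1, 3 or 4 or R1W replicate 2, 3 or 4 (adjusted p = 0.0651 to 0.140). In R4W against UUO7 Mmp7 and Mmp14 fell. As with Mmp2, none of the 7 was called in UUO2 against sham as deposited (1, higher, after rescaling), and all 7 rose between UUO2 and UUO7, beside 52.0% of all genes as deposited and 30.0% after rescaling. Mmp11, or stromelysin 3, rose most of the 7 in that interval, by 3.02 ± 0.25 (log2; adjusted p = 3.74e-09), and in R4W it was below UUO7 by -0.95 ± 0.25 (adjusted p = 0.00396), a comparison in which Mmp2 did not pass the test.

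Of the other ADAMTS proteases (8 of 17 with a row) 6 were higher at 7 days. Adamts4, an aggrecanase, fell from 3.52 ± 0.687 FPKM in UUO7 to 1.34 ± 0.152 FPKM in R1W (SD, n = 4), by -0.94 ± 0.14 (log2; adjusted p = 5.33e-04). Of 8 ADAM sheddases with a row 7 were higher and Adam9 lower at 7 days (-0.50 ± 0.13, log2; adjusted p = 0.00105).

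The proprotein convertases, such as Furin, cut the propeptide from Mmp14 and from ADAMTS proenzymes, and all 3 with a row (Furin, Pcsk5 and Pcsk6) were lower at 7 days than in sham. Pcsk6 was 10.9 ± 3.56 FPKM in sham and 2.26 ± 1.26 FPKM in UUO2 (SD, n = 4), a fall of -1.90 ± 0.23 (log2; adjusted p = 1.21e-06). Furin fell by 7 days by -0.43 ± 0.08 (log2; adjusted p = 2.65e-05). In R4W Pcsk6 was 8.10 ± 2.23 FPKM, higher than in UUO7 by 1.55 ± 0.23 (log2; adjusted p = 3.12e-05). Against sham Pcsk6 in R4W differed by -0.38 ± 0.23 (log2; adjusted p = 0.154) as deposited and by -0.72 (adjusted p = 0.0131) after rescaling, where it was called. Furin in R4W was below sham by -0.30 ± 0.08 (log2; adjusted p = 0.00178) as deposited and by -0.67 after rescaling.

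**Figure D5:**
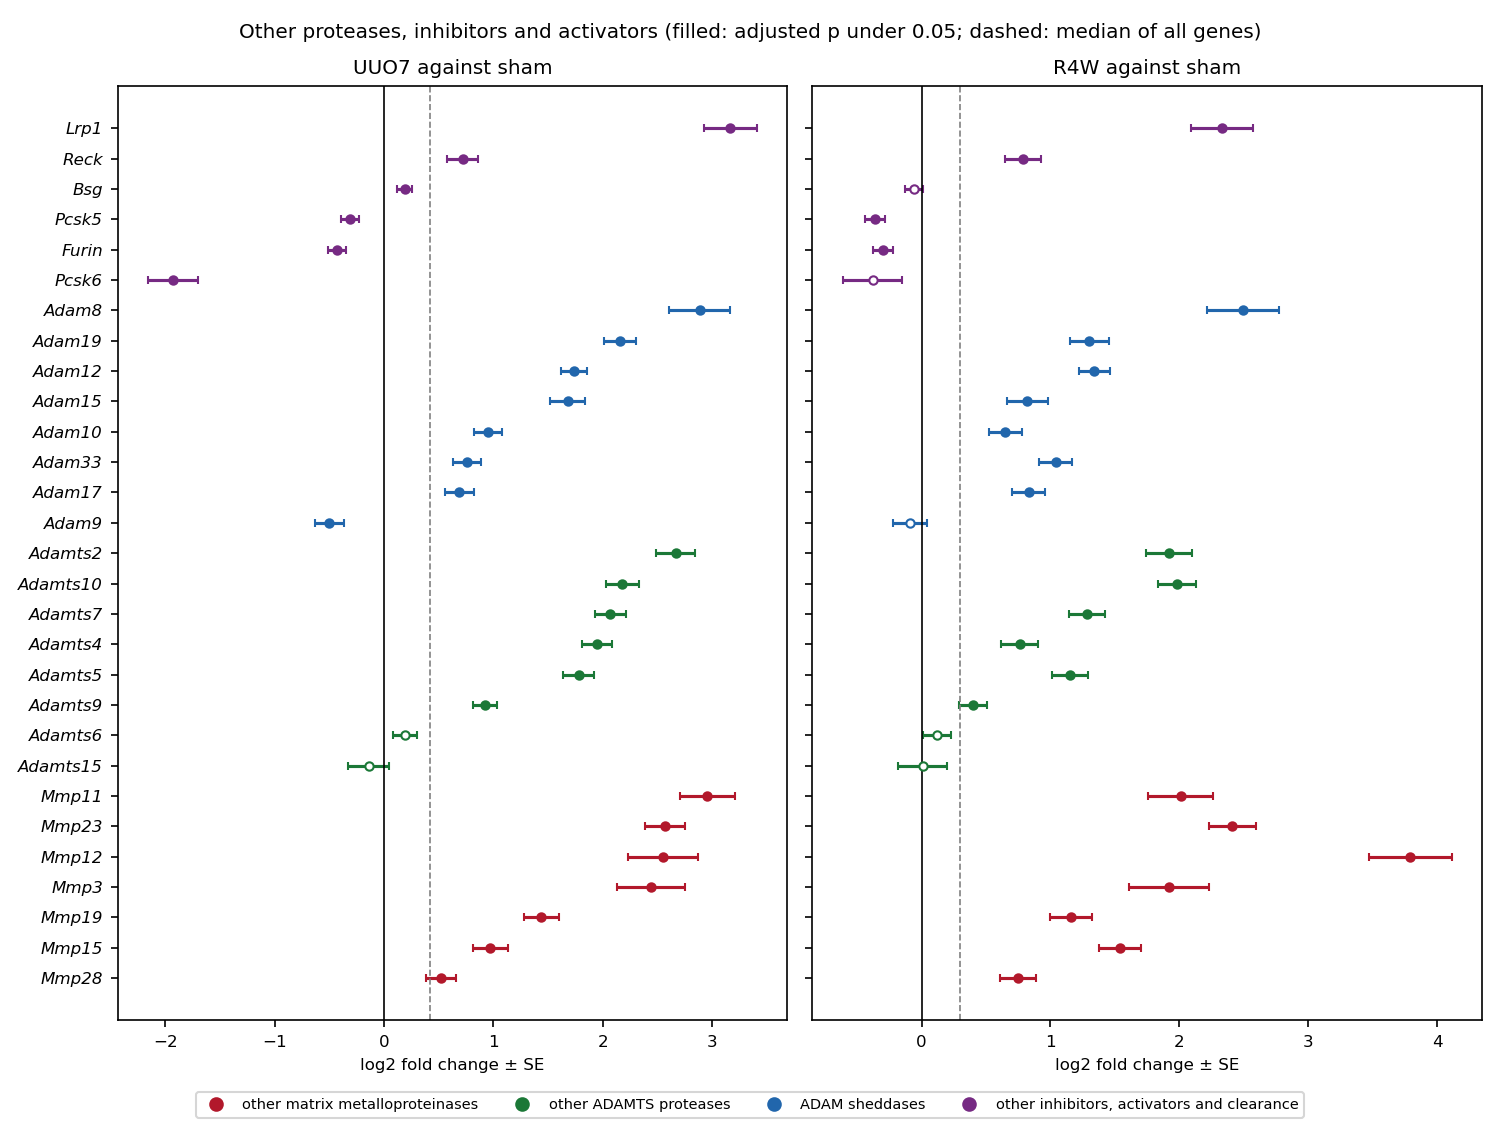
Log2 fold change ± SE (horizontal axes) of the 29 other proteases, inhibitors and activators with a row, in UUO7 against sham and R4W against sham. Colours mark the 4 lists, filled points passed the test and the dashed line is the median of all genes. Pcsk6 lies lowest at 7 days and Mmp12 highest in R4W.

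The substrates on which these enzymes act were set beside them. All 10 matrix substrates with a row were higher in UUO7 than in sham as deposited, 9 of 10 after rescaling, and 9 of 10 were lower in R4W than in UUO7, beside 30.8% of all genes. Col3a1, a fibrillar collagen, was 6.41 ± 2.92 FPKM in sham, 50.3 ± 11.4 FPKM in UUO2 and 292 ± 47.6 FPKM in UUO7 (SD, n = 4), so unlike Mmp2 it had risen by 2 days (2.83 ± 0.27, log2; adjusted p = 5.29e-08). In R4W Col3a1 was 111 ± 26.6 FPKM, below UUO7 by -1.40 ± 0.27 (log2; adjusted p = 2.96e-04), a comparison in which Mmp2 and Timp2 did not pass the test. Vcan, the versican that Adamts1 cuts, had 6.43 ± 1.24 FPKM in UUO7 and 2.71 ± 1.21 FPKM in R1W, lower by -1.04 ± 0.30 (log2; adjusted p = 0.0247). That call was lost without UUO7 replicate 2, 3 or 4 or R1W replicate 1 or 4 (adjusted p = 0.0533 to 0.0847). Differences between these genes' changes were not tested.

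The genes lie apart in the genome. In mm10, as the deposited table gives them, Mmp2 is at chr8:92827291-92853420 (plus strand), Mmp7 at chr9:7692090-7699585 (plus), Mmp14 at chr14:54431612-54445364 (plus) and Adamts1 at chr16:85793827-85803113 (minus). Adamts16 is at chr13:70727802-70841811 (minus), Timp1 at chrX:20870166-20874735 (plus), Timp2 at chr11:118301069-118355740 (minus) and Timp3 at chr10:86300372-86349506 (plus). Timp1, inside Syn1, and Mmp7 and Adamts16 also have annotated genes on the opposite strand, and Timp2 holds Cep295nl on its own strand. Those genes are not analysed here.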

How the data were processed

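Polyadenylated RNA of 24 mouse kidneys was sequenced as paired reads, per the labels' protocols. The authors deposited one table with a value per gene and library whose unit is not stated. FPKM was inferred here: the deposited columns summed to 717415 to 830179, a ratio of highest to lowest of 1.16, and weighting by transcript length brought this to 1.08. The submitters' processing notes name FastQC, RSEM, Bowtie2, DESeq2 and the build mm10, without roles or versions. The deposited log2 fold changes and adjusted p-values are the authors' own. Of the gene identifiers 13131 matched the GRCm38 annotation with version, all 13131 with the same start and end.

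Groups came from the sample titles. The test was limma 3.58.1 under R 4.3.3 (eBayes with trend, two-sided) on log2(FPKM + 1), in a single fit of all 24 libraries with 6 group coefficients and 7 contrasts, and Benjamini-Hochberg adjustment over 14785 genes. Count models were not used as the main test, since no counts are in the table. The members, the gene lists and the tests were chosen with earlier results of these data known. Besides the members, genes were named by rule: in a contrast the 3 largest rises and 3 largest falls, at most, among called list genes without overlap between groups and with a mean of 2 FPKM or more, of which those bearing on the members are printed, and the 3 genes of highest r with each member, of which 1 is not reported here.

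Alternatives were rescaled values, pseudocounts of 0.1 and 10, a filter at a mean of 5 FPKM, separate fits of 2 groups, the replicate number as a block, R4W replicate 2 in R2W, a fit without UUO2 and leaving out each library. A fit without the 3 libraries with Adipoq above 1 FPKM was added after seeing the data. The test was tested on simulated data for UUO7 against sham: of 14785 genes, 91 of 100 changed by a log2 of 1 and 98 of 100 changed by a log2 of 2 were called, with 7 unchanged genes called. Depth was read with Python 3.11.15 and numpy 2.4.6 from steps in low values of 2063 genes. On simulated data this scan found 2 of 3 depths. The largest simulated depth lay above the range scanned, where the depth of no library could be found. The depths given are estimates.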

Additional observations from a re-analysis of the deposited data

Results flagged for a closer look

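One of 48 sets of 4 animals (8 members in 6 groups) held a value far from the others. Adamts16 in R2W replicate 3 was 7.52 FPKM, while the other 3 animals of that group had 4.08 to 4.55 FPKM. By chance about 2.40 of 48 such sets would be picked out, at 5 in 100. The same library had the highest Mmp7, Mmp14, Adamts1 and Timp1 of its group.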

How the results depend on the processing

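Leaving out each of 8 libraries in turn gave 4 to 5 members called in UUO2 against sham, 7 in UUO7 against sham, UUO7 against UUO2 and R4W against sham, 5 in R4W against UUO7, 0 to 1 in R1W against UUO7 and 1 to 4 in R4W against R1W. A pseudocount of 10 left 3 of 5 calls in UUO2 against sham. In R1W against UUO7 1 of 2 calls was left with a pseudocount of 0.1 and with the replicate block. In R4W against R1W 1 of 3 was left with a pseudocount of 0.1, in a fit on the 2 groups and without the 3 libraries with Adipoq. Replicate numbers are shared by title only: same-numbered deviations correlated at -0.30 to 0.45, so the block describes no pairing. Timp2 changed sign near 0: in UUO2 against sham it was 0.04 without the 3 libraries and -0.31 to 0.04 leaving out 1, and in R4W against R1W it was -0.01 with R4W replicate 2 in R2W, -0.10 without the 3 libraries and -0.04 to 0.13 leaving out 1. Mmp2 in UUO2 against sham was -0.13 to 0.04 leaving out 1. The cause was not tested. The members' other called differences kept their direction in all fits run. Depth is unknown for UUO2.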
